A study of Mus musculus with 12 samples.

Results

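Jun, Jund and Atf3 are genes of the bZIP family of transcription factors, and they were taken by name from the deposited list of 584 genes that the study had called differentially expressed between housing conditions. They make up 3 of these 584 genes. The listed genes were selected on their counts in EE against SH, the comparison described here, so the members' differences between the groups are given as a description and not as a test. Male C57BL/6 mice were weaned at 3 weeks of age and kept for 5 weeks in a standard cage (SH) or in an enriched environment (EE), a cage with toys, tunnels and hideouts that were rearranged every week. EE cages also held more animals than SH cages. These ages are those of the study's methods, while its sample labels speak of newborn pups being grouped, so when enrichment began is not settled by the sources. RNA-seq was performed on the hippocampus at 8 weeks of age, with 3 SH and 3 EE samples that the study calls biological repeats. The treatment field of both groups reads untreated, the titles mark SH as control and EE as treated, and no altered allele is named for either. The sources used here do not state how many animals made a sample or which animals shared a cage, so an effect of cage cannot be told apart from that of housing, and p-values measure the spread between these samples only.

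AP-1 is a dimer of bZIP proteins, in which a basic region contacts DNA and a leucine zipper joins both partners. Jun (c-Jun) is the best known AP-1 subunit, is phosphorylated by JNK kinases and is induced in neurons by activity, stress and axon injury. Jund (JunD) is the Jun relative that many tissues express steadily and that often restrains proliferation. Atf3 is an ATF/CREB factor that is low in resting tissue and is induced by stress and nerve injury, and it can pair with Jun proteins or act as a repressor as a homodimer.

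Jun lies on chromosome 4 of GRCm38 (95049036 to 95052222, minus strand) and Jund on chromosome 8 (70697739 to 70700616, plus strand), and RefSeq models each of them as 1 exon. Atf3 lies on chromosome 1 (191170296 to 191183333, minus strand) with 4 exons. The gene lengths behind the deposited FPKM (fragments per kilobase of exon, scaled to the reads of the library) were 3187 bases for Jun, 2878 for Jund and 1977 for Atf3, which are the RefSeq exon lengths exactly. GENCODE (release M21) starts Jund 1210 bases further downstream and gives it 1668 bases. It also places an antisense gene over part of Jun (Junos, 689 shared bases) and over part of Jund (Gm11175, 919 shared bases). The strand setting of the counting is not given in the sources used here, so reads of an antisense partner could not be told apart from those of Jun or Jund.

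All 3 members have an entry among the RefSeq promoter windows of GRCm38 (300 bases each), and the stretches below show the sites of the ATF/AP-1 type that Jun, Jund and Atf3 proteins could themselves bind, with the site in capitals. The letters searched were TNACNTCA on either strand, a pattern chosen after the windows had been read, and 16.4% of 32851 RefSeq windows hold it.
Jun, chr4:95052368-95052397, minus strand: gcagcggagcaTTACCTCAtcccgtgagcc
Jun, chr4:95052249-95052278, minus strand: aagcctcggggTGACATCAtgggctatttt
Atf3, chr1:191183325-191183354, minus strand: tattaatagcaTTACGTCAgcctgggattg
Jund, chr8:70698724-70698753, plus strand: ccccacccccaTGACGTCAacccacaatgc
The sites of Jun begin 164 and 45 bases before its RefSeq start, and that of Atf3 begins 10 bases before its RefSeq start. GENCODE extends Atf3 upstream to 191218039, and the sequence at that start was not searched. The exact letters TTACCTCA are in 0.889% of the windows, TGACATCA in 3.62% and TTACGTCA in 0.499%. The Jund stretch is not from the RefSeq window but from a window of the same length at the GENCODE start, read from the genome. It holds TGACGTCA, the cAMP response element, 214 bases before that start, and 1.79% of the RefSeq windows hold these letters. The RefSeq window of Jund has 2 matches to TNACNTCA, both TGAGGTGA on the printed strand, the upstream copy of them 95 bases before the start. The canonical AP-1 letters TGACTCA (or TGAGTCA) are in none of these 4 windows and in 5.2% of all RefSeq windows. A match of letters is a description and shows no binding.

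Read totals were between 31969156 and 53943195 per library, and the counts of any deposited gene were at least 19. Mean FPKM was higher in EE for 246 of the 584 genes and lower for 338. Because the list was made from this contrast, edgeR's quasi-likelihood test at an unadjusted p-value under 0.01 called 59.8% of all listed genes, 19.2% as higher and 40.6% as lower in EE. The study's methods name the same p-value together with a threshold on the fold change, which was not applied here, and do not say whether the p-value was adjusted. The balance of calls turned with the scaling of the libraries, from 112 higher and 237 lower with the read totals to 229 and 53 with TMM factors and 233 and 29 with DESeq2. In 90.9% of the listed genes the 3 libraries of each group did not overlap, 37.2% higher and 53.8% lower in EE. No member is singled out by such a count, and the 3 members, all called and none overlapping, are to be read beside these shares.

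Jun was the most abundant of the 3 factors and was lower in EE. Its FPKM was 37.7, 39.9 and 39.9 in SH replicates 1, 2 and 3, and 35.1, 33.1 and 35.7 in EE replicates 1, 2 and 3. Every EE library thus lay below every SH library, with a small gap between the lowest SH library and the highest EE library. SH libraries averaged 39.2 ± 1.25 and EE libraries 34.6 ± 1.32 (SD, n = 3 each), so that the level decreased by 11.6%. Scaled by TMM factors it decreased by 6.71%, and scaled by DESeq2's factors it decreased by 4.68%, with the call lost in both. The log2 fold change was -0.18 (standard error 0.05), next to a median of -0.18 over all 584 genes. Jun took between 3845 and 6129 reads per library, so counting error was small, with an expected coefficient of variation of 1.48% in SH against the observed 3.18%. These are values of whole hippocampus, in which fewer cells of a type and less RNA per cell cannot be told apart.

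Jund was also lower in EE. Its FPKM was 20.7, 22.1 and 22.6 in the SH libraries and 17.6, 18.5 and 19.9 in the EE libraries. SH replicate 1 was the lowest of the SH libraries, and EE replicate 3 came nearest to it without reaching it. The exact 95% Poisson intervals of these libraries overlapped, with 19.8 to 21.7 FPKM in SH replicate 1 and 19.2 to 20.6 in EE replicate 3. SH libraries averaged 21.8 ± 0.97 and EE libraries 18.7 ± 1.16 (SD, n = 3 each), a level that decreased by 14.4%. Scaled by TMM factors it decreased by 9.68%, and scaled by DESeq2's factors it decreased by 7.73%, again with the call lost in both. The log2 fold change was -0.22 (standard error 0.06). Among the 338 lower genes Jund ranked 181 and Jun 280 by the size of the log2 fold change, where the median of lower genes was -0.23.

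Atf3 went the other way, from a low level. It was counted with 25, 36 and 24 reads in SH replicates 1, 2 and 3, and with 54, 69 and 73 reads in EE replicates 1, 2 and 3. The FPKM was 0.396, 0.472 and 0.301 in SH and 0.728, 0.824 and 0.685 in EE. The groups did not overlap, with all EE values on the higher side, although counting intervals of single libraries did. The exact 95% Poisson interval of the FPKM in SH replicate 2 (0.331 to 0.653) overlapped those of all 3 EE libraries, whose lower ends were 0.547, 0.641 and 0.537, and that in SH replicate 1 (0.256 to 0.584) overlapped those of EE replicates 1 and 3. SH libraries averaged 0.390 ± 0.086 and EE libraries 0.746 ± 0.071 (SD, n = 3 each), a ratio of 1.91. The log2 fold change was 0.93 (standard error 0.22), the rank 7 among the 246 higher genes, whose median was 0.21. The listed genes were selected in part by p-value, which a gene with few reads passes only with a large difference. This rank is thus tied to the low level of Atf3. The spread of the 3 SH libraries (coefficient of variation 22.0%) was near that expected from counting alone (19.1%), and the same held in EE (9.56% observed, 12.5% expected). Such intervals cover counting error only, and their overlap is not a test of a difference between libraries.

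**Figure D1:**
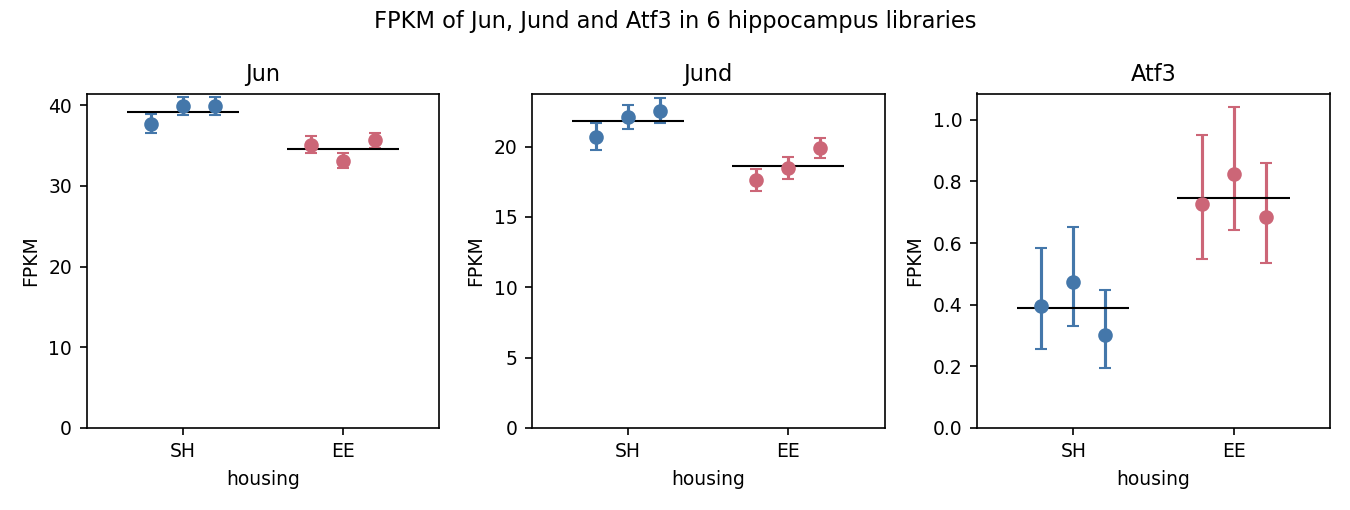
FPKM (y axis, from 0, with its own scale in each panel) of Jun, Jund and Atf3 in the SH and EE libraries; points are libraries in the order of replicate 1 to 3, bars are exact 95% Poisson intervals of the count and lines are group means. Jun and Jund are lower in every EE library and Atf3 is higher, with the widest bars for Atf3, which has 24 to 73 reads.

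The levels of the 3 factors were far apart. Jun had 1.83 times the FPKM of Jund (between 1.77 and 1.99 times in single libraries), 69.0 times that of Atf3 (40.2 to 132.5 times), and Jund had 37.8 times that of Atf3 (22.4 to 75.0 times). In each of these 3 pairs the order held in 6 of 6 libraries, and an exact sign-flip permutation test of the log2 ratio gave p = 0.031 (two-sided, 0.031 after Benjamini-Hochberg adjustment over the 3 pairs), the smallest that 6 libraries allow. The p reflects only that the order was the same in every library, and it was equally 0.031 with the GENCODE lengths described next, so it does not bear on the size of a ratio. The place of Jund rests on its length. With the GENCODE exon lengths, chosen after seeing the data, its FPKM became 35.7, 38.1 and 38.9 in SH and 30.4, 31.8 and 34.3 in EE, and Jun exceeded it only 1.06 times (1.02 to 1.16 times), still in 6 of 6 libraries. Jund then had 70.9 times the FPKM of Atf3 (42.1 to 140.9 times) and Jun 75.1 times (43.8 to 144.3 times). These values take all reads of Jund as lying within the shorter model, which was not tested. Within the list, Jun ranked 121 and Jund 219 of 584 from the highest mean FPKM, and Atf3 ranked 23 from the lowest.

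Because of these levels, the differences of opposite sign were very unequal in reads. In RPM, which scales reads to the library as FPKM does but without the gene length, mean Jun was 124.9 in SH and 110.4 in EE. Mean Jund was 62.7 and 53.7 RPM, and mean Atf3 0.770 and 1.47 RPM. Summed over the 3 genes, EE had 165.5 and SH 188.3 RPM. These values rest on the read totals, and the scalings by TMM and DESeq2 make the differences of Jun and Jund smaller, as given above.

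The Atf3 to Jun ratio was computed within each library, which removes the scaling of the library. Atf3 FPKM was 1.05%, 1.18% and 0.755% of Jun FPKM in SH replicates 1, 2 and 3. It was 2.07%, 2.49% and 1.92% in EE replicates 1, 2 and 3. All EE libraries were above all SH libraries, and SH averaged 0.995% ± 0.219 and EE 2.16% ± 0.293 (SD, n = 3 each), 2.17 times as high. Put the other way, each unit of Atf3 FPKM stood beside 104.2 ± 25.2 units of Jun in SH and 46.8 ± 6.05 in EE (SD, n = 3 each). On the log2 scale the ratio differed by 1.13, where the mean log2 FPKM of Atf3 alone differed by 0.96. Since Atf3 was higher and Jun lower in every EE library, the groups of this ratio could not overlap. Their separation is therefore not a further result.

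The Jun to Jund ratio, in contrast, overlapped between the groups. It was 1.82, 1.81 and 1.77 in SH and 1.99, 1.80 and 1.79 in EE, and EE replicate 1 stood above the others, the library in which Jund was lowest. SH averaged 1.80 ± 0.03 and EE 1.86 ± 0.12 (SD, n = 3 each), a log2 difference of 0.047. Without EE replicate 1 this difference was -0.0041, so its sign rests on that library.

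**Figure D2:**
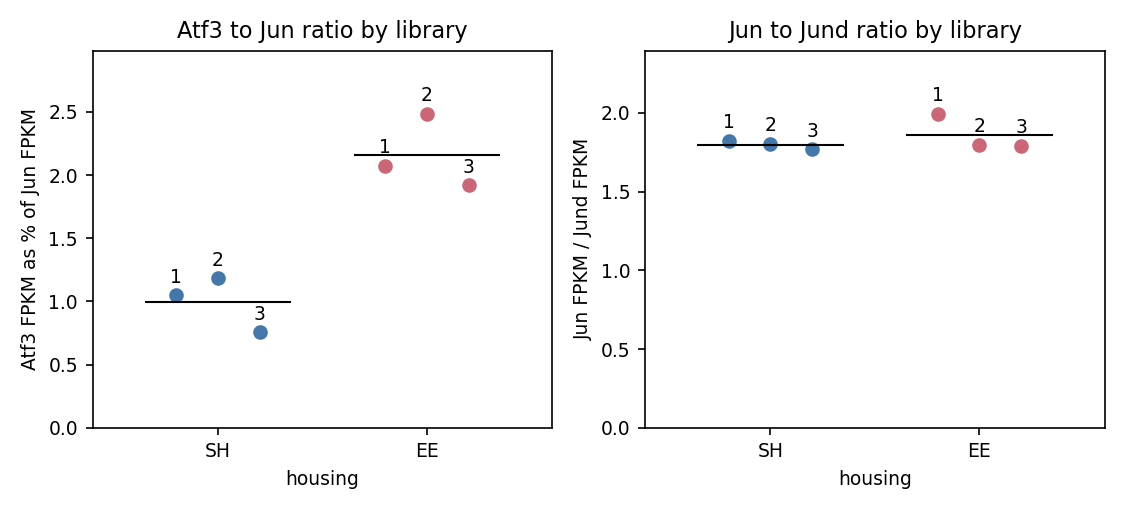
Ratios of FPKM within each library for SH and EE, with the replicate number at each point and the group mean as a line. Left, Atf3 as a percentage of Jun is between 0.755% and 1.18% in SH and between 1.92% and 2.49% in EE. Right, Jun divided by Jund is between 1.77 and 1.82 in SH and between 1.79 and 1.99 in EE.

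The calls of Jun and Jund depended on how the libraries were scaled, and that of Atf3 did not. With TMM factors computed over the listed genes, the log2 fold changes were -0.10 for Jun, -0.15 for Jund and 1.01 for Atf3, and with DESeq2 and its size factors -0.070, -0.12 and 1.05. Under both scalings Jun and Jund were no longer under p 0.01, and Atf3 was. DESeq2's factors moved the median of all 584 log2 fold changes by 0.11, from -0.18 to -0.067. Relative to the median of all listed genes, Jun was at -0.0023, Jund at -0.048 and Atf3 at 1.11 with the read totals, and at -0.0028, -0.049 and 1.12 with DESeq2. On DESeq2's factors the Jun groups overlapped, with 36.6 as the lowest SH value and 36.7 as the highest EE value, whereas the groups of Jund (20.1 and 19.9) and Atf3 (0.448 and 0.685) stayed apart. TMM and DESeq2 centre the bulk of the genes on no change, and here the genes given to them had all been selected as different. With limma on log2(FPKM + 1) the value of Atf3 was 0.33, since that pseudocount exceeds its level, and the call was kept.

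Leaving out each library in turn kept the direction of the 3 genes. Atf3 was called in 6 of 6 such fits, with log2 fold changes between 0.77 and 1.11. Jun was called in 2 of 6 (-0.20 to -0.15) and Jund in 2 of 6 (-0.27 to -0.18), in both cases the fits without SH replicate 1 and without EE replicate 3.

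**Figure D3:**
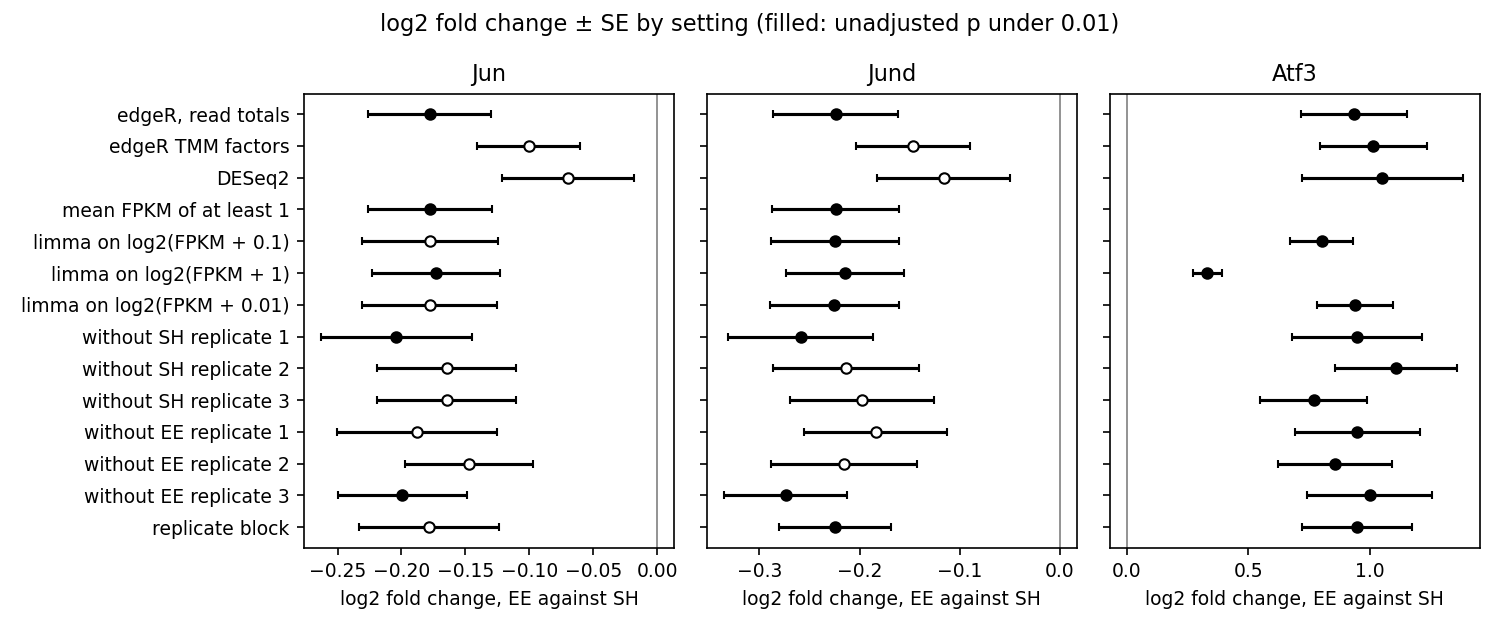
log2 fold change of EE against SH with its standard error (x axis, its own range in each panel) for Jun, Jund and Atf3 under each setting (y axis); filled points have an unadjusted p under 0.01. All points of Jun and Jund are below 0, from -0.27 to -0.070, with many open points, and all points of Atf3 are filled and above 0, from 0.33 to 1.11. The row for a mean FPKM of at least 1 has no point for Atf3, which is below that level.

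Exon GC content moved with the direction of the whole list. The 333 lower genes with a GC value had a median of 56.8% and the 237 higher genes a median of 44.1%. Jund had 62.7%, Jun 55.6% and Atf3 52.15%. Of the 143 genes with the highest GC content (57.6% to 68.2%), which include Jund, 95.1% were lower in EE, and of the next 142 genes (52.9% to 57.6%), which include Jun, 84.5%. Of the 142 genes from 44.8% to 52.7%, which include Atf3, 47.2% were lower, with 75 genes higher and 67 lower. The part of GC content in the values of Jun and Jund was not tested. Of the 143 genes with the highest GC content, 7 were higher in EE. Of these, 4 are in the lists described next, namely Egr4 (68.2% GC, the highest of the list), Dusp5, Dbp and Nptx2. Jund and Map3k10, of the same lists and the same GC range, were lower.

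**Figure D4:**
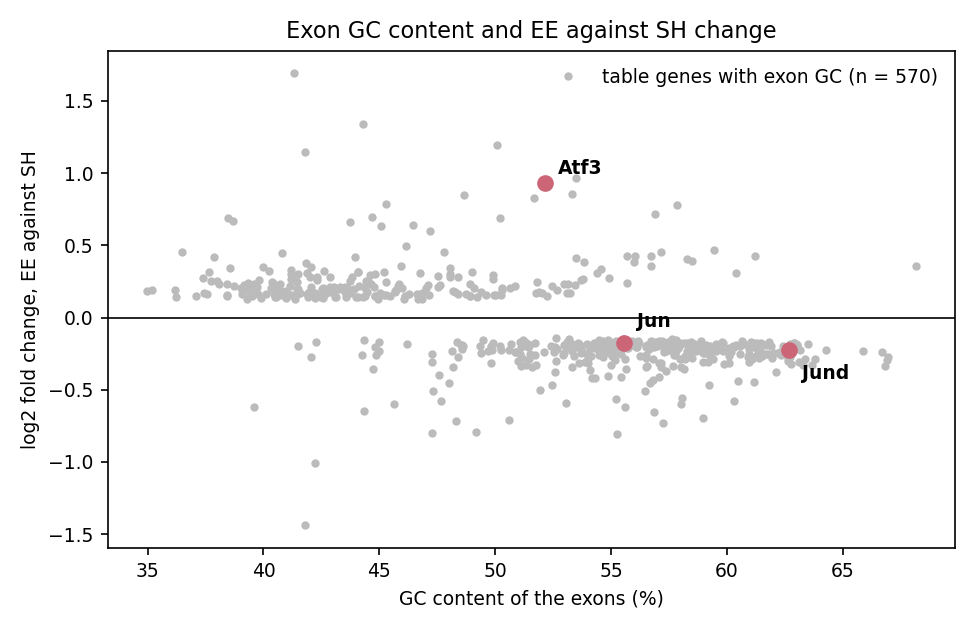
GC content of the exons (x axis, %) and log2 fold change of EE against SH (y axis) for the 570 listed genes with RefSeq exons; the 3 named points are Jun, Jund and Atf3. Jund and Jun lie within the dense band of lower genes at high GC content, and Atf3 at 52.15% stands above most higher genes.

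Of 46 bZIP factors looked up, 5 were in the deposited list and the other 41 were not analysed here. Beside the 3 members these were Dbp, a PAR bZIP factor of circadian output, and Nfe2l1, which drives proteasome and antioxidant genes. Dbp had 21.0, 17.0 and 25.8 FPKM in SH and 27.6, 27.1 and 33.6 in EE, and its log2 fold change was 0.47 (standard error 0.13). Nfe2l1 had 52.8, 54.3 and 49.7 FPKM in SH and 46.3, 46.0 and 47.8 in EE, and its log2 fold change was -0.16 (standard error 0.05). All 5 were called, 2 higher and 3 lower, where 59.8% of all listed genes were called, and their median log2 fold change was -0.16, beside -0.18 over all listed genes. Nfe2l1 was not called with TMM factors (-0.084) or DESeq2 (-0.052), so that all 3 lower calls were lost under these scalings, nor without SH replicate 1 or 2 or EE replicate 1 or 2 (-0.16 to -0.13), nor by limma with any of the 3 pseudocounts (-0.16). Dbp was not called without SH replicate 2 (0.33) or EE replicate 3 (0.36), or by limma with a pseudocount of 0.1 or 0.01 (0.48 in both).

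Of 30 genes of the JNK and other MAP kinase pathways, which act upstream of Jun, 3 were listed, and all 3 were called, beside 59.8% of all listed genes. Map3k10, a mixed lineage kinase that feeds into JNK signalling, was lower in EE, with a log2 fold change of -0.21 (16.8 ± 0.63 FPKM in SH and 14.5 ± 1.15 in EE, SD, n = 3). It was not called with TMM factors (-0.13) or DESeq2 (-0.10), nor without SH replicate 1 or 2 or EE replicate 1 or 2 (-0.20 to -0.17), nor by limma with any of the 3 pseudocounts (-0.21 to -0.20). Dusp5 and Dusp6, phosphatases that inactivate ERK, were higher by 0.43 and 0.32 on the log2 scale, the latter not called without EE replicate 2 (0.28). The median of these 3 genes was 0.32.

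Of 40 activity-induced immediate early genes and effectors, 13 were listed, and 13 of 13 had a higher mean in EE, with log2 fold changes from 0.17 to 0.97 and a median of 0.35. 6 of them were called (Egr4, Nptx2, Bdnf, Ptgs2 and, counted here again, Dusp5 and Dusp6), and in 8 the groups did not overlap, where 59.8% of all listed genes were called and 90.9% did not overlap. Of the 246 listed genes that were higher in EE, 112 were called and 217 did not overlap. The list was drawn up with earlier results of these data known, so this shared direction is a description only. Jun itself is commonly counted among immediate early genes but was not placed in this list, and it was lower in EE. Atf3, also not in this list, was close to the value of Egr2, a zinc finger factor of similar abundance. Egr2 had 0.578, 0.208 and 0.220 FPKM in SH and 0.683, 0.847 and 0.408 in EE. Its groups overlapped, and its log2 fold change of 0.97 had a standard error of 0.38 and was not called. Without SH replicate 1 it was 1.58 and was called by edgeR. Egr1 (0.39) and Nr4a1 (0.43) were not called either, and in both of them SH replicate 1 was well above the other SH libraries, at 50.5 FPKM for Egr1 and 9.37 for Nr4a1. Without that library both were called, with 0.61 for Egr1 and 0.67 for Nr4a1. Atf3 did not share this, since its SH replicate 1 (0.396) lay between the other SH values. Nptx2, a synaptic pentraxin, was called with 0.41 and Egr4 with 0.36, and Egr4 was not called without SH replicate 3 (0.30), EE replicate 1 (0.38) or EE replicate 3 (0.31).

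Of 27 genes of the integrated stress response, in which Atf3 acts downstream of Atf4, 3 were listed. Atf3 was the called member, beside 59.8% of all listed genes called, and the groups of all 3 did not overlap, as in 90.9% of all listed genes. Phgdh (serine synthesis) and Hspa5 (the ER chaperone BiP) had log2 fold changes of -0.20 and -0.25 and were not called. Phgdh was called without EE replicate 3 (-0.26), and Hspa5 without SH replicate 1 (-0.30) or EE replicate 2 (-0.33). Hspa5 had 173.8 ± 16.2 FPKM in SH and 145.8 ± 15.9 in EE (SD, n = 3). The median of the 3 genes was -0.20. Of 25 AP-1 target and nerve-injury genes, 0 were listed, and these genes were not analysed here.

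**Figure D5:**
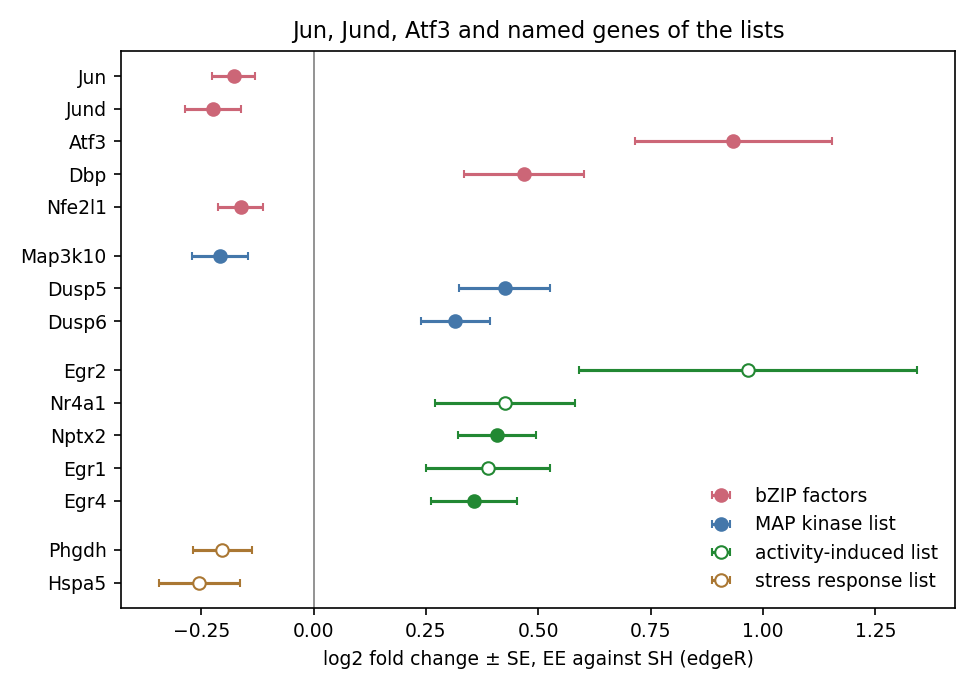
log2 fold change of EE against SH with its standard error (x axis) from edgeR for the 3 members and the named genes of the 4 lists that had genes in the table (y axis, colour by list, Dusp5 and Dusp6 shown with the MAP kinase list); filled points have an unadjusted p under 0.01. Atf3 at 0.93 and Egr2 at 0.97 lie farthest to the right, and Jun and Jund lie at -0.18 and -0.22 near Nfe2l1, Map3k10, Phgdh and Hspa5.

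The genes with the profile most like each member were found by the root mean square difference of log2(FPKM + 0.1), centred on each gene's mean, over the 6 libraries. Nearest to Jun were Pcbp4 (0.013), Nudt3 (0.015), Adam11 (0.016), Pink1 (0.021) and Ppp1r12c (0.021), against a median difference from Jun of 0.143 over the listed genes. Nearest to Jund were Xylt2 (0.028), Nptx1 (0.029), Unc5a (0.033), Mast3 (0.035) and Gas2l1 (0.036), against a median of 0.141. All 10 of them were lower in EE, with a GC content of 55.2% to 61.8%. The profile holds the difference between the groups, so this direction was fixed by the choice of genes. The 333 lower genes with a GC value had a median of 56.8%. Jun and Jund were not close neighbours of each other by this measure, since Jund was number 130 in likeness to Jun and Jun number 64 in likeness to Jund, at a difference of 0.058. In SH both had their lowest value in replicate 1, but in EE Jun was lowest in replicate 2 and Jund in replicate 1. Nearest to Atf3 were Fst (0.160), Pqlc3 (0.178), Gm35037 (0.191), LOC108167667 (0.205) and Elf4 (0.206), against a median of 0.516, all of low level, with a mean FPKM between 0.157 and 1.18. Fst encodes follistatin, an activin antagonist, and had 0.547, 0.670 and 0.555 FPKM in SH and 0.848, 1.07 and 0.855 in EE, highest in replicate 2 of each group as Atf3 was.

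Markers of cell types were looked up as well, and 6 of 56 were in the list, with no marker of neurons in general, oligodendrocytes or choroid plexus. Of the markers looked up, the label of hippocampus could be checked through C1ql2 alone, a gene of dentate granule neurons, with 18.6 to 24.7 FPKM in EE and 22.1 to 28.4 in SH. Of 8 astrocyte markers 2 were listed, Gja1 and Aldh1l1, both lower in EE. Their summed FPKM was 101.4 to 104.0 in SH and 91.2 to 92.4 in EE. Of 8 microglia markers P2ry12 was listed, with 18.6 to 21.7 in SH and 23.5 to 24.8 in EE. Of 8 endothelial markers 2 were listed, Cldn5 (-0.44) and Slco1a4 (0.28), with opposite signs of the log2 fold change. The part of these markers in the values of Jun, Jund and Atf3 was not tested.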

How the data were processed

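RNA-seq libraries of 3 SH and 3 EE hippocampus samples were analysed, and the 6 m6A immunoprecipitation libraries of the study were not analysed here. The authors mapped reads to mm10 with Hisat2, counted them per gene with FeatureCounts and deposited raw counts for the genes they called with edgeR. The authors also deposited FPKM, for which they scaled counts by gene length and sequencing depth. The deposited p-value and log2 fold change columns hold the authors' own comparison and were not used. Read totals were worked back from count, FPKM and RefSeq exon length (GRCm38), where 200 genes gave the same total within 0.001% in each library. By symbol or older symbol, 570 of 584 genes had exon lengths and GC content.

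Counts were tested with edgeR 4.0.16 (quasi-likelihood, R 4.3.3) over all 584 genes, with these totals as library sizes and no filter, and tested on simulated data first. A call is an unadjusted p-value under 0.01. Standard errors were taken from the F statistic and the fold change. Alternatives were TMM factors, DESeq2 1.42.0, limma 3.58.1 on log2(FPKM + 0.1) with pseudocounts of 1 and 0.01, a mean FPKM of at least 1, a p-value of 0.001, leaving out each library, and the replicate number as a block. Same-numbered SH and EE samples did not deviate together (correlations 0.150, -0.044 and -0.098), so the numbers were not taken to pair samples. The GENCODE lengths and the FPKM rescaled by TMM and DESeq2 factors, with their percent changes and overlap of groups, were added after seeing the data.

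Members and gene lists were chosen with earlier results of these data known. Named genes are the members, other listed bZIP factors, of each other list all or the 6 with the largest log2 fold change, and the 5 genes nearest to each member in profile. Bdnf and Ptgs2 (called), marker genes and 4 genes of high GC content were named after their values were seen. Protein sequences were not used here.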

Additional observations from a re-analysis of the deposited data

How the results depend on the processing

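The direction of Jun, Jund and Atf3 was the same in every alternative run, and the calls were not. The log2 fold change of Jun no longer passed p 0.01 with TMM factors (-0.10), DESeq2 (-0.070), limma with a pseudocount of 0.1 (-0.18) or 0.01 (-0.18) and the replicate block (-0.18), and neither did Jund with TMM factors (-0.15) and DESeq2 (-0.12). At a threshold of 0.001 none of Jun (-0.18), Jund (-0.22) and Atf3 (0.93) passed. With each library left out, Jun ran from -0.20 to -0.15, Jund from -0.27 to -0.18 and Atf3 from 0.77 to 1.11. A mean FPKM of at least 1 gave no value for Atf3. The numbers of all listed genes called higher and lower (112 and 237) became 229 and 53 with TMM factors, 233 and 29 with DESeq2, and 10 and 21 at a threshold of 0.001. They ran from 52 to 98 and from 77 to 228 with each library left out. The replicate block left 136 genes called lower, and of the other 27 named genes 6 lost the call under it, Nfe2l1 and Map3k10 among them, and 4 gained it (Egr1, Egr2, Nr4a1 and Hspa5). The numbers do not pair the samples, and no pairing was assumed. The log2 difference of the Jun to Jund ratio ran from -0.0041 to 0.074 with each library left out, negative without EE replicate 1. The mean log2 level ratios ran from 0.85 to 0.88 (Jun over Jund), from 5.92 to 6.26 (Jun over Atf3) and from 5.04 to 5.39 (Jund over Atf3) in fits of 5 libraries, where the smallest exact permutation p is 0.0625, so that none could pass 0.05. With TMM factors the median log2 fold change became -0.084 for the bZIP list and 0.39 for the MAP kinase list. For the other 27 named genes, 247 of 346 values kept both direction and call, 83 lost the call, 16 gained it and none changed direction. The cause of lost calls was not tested. With 24 to 73 reads, the value of Atf3 is limited by counting.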
